A study of Mus musculus with 23 samples.

Results

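The genes described here are 9 chemoattractant receptors of leukocytes: Fpr1, Fpr2, C5ar1, C3ar1, Ptafr, Ltb4r1, Ccr1, Ccr2 and Cxcr4. They were chosen by symbol from the deposited gene annotation, are 9 of 52636 genes in the tables, and 9 of 9 passed the filter on low counts that left 15782 genes to test. RNA was measured by polyA-selected sequencing in mouse bone marrow-derived macrophages (BMDMs), macrophages grown in culture from bone marrow cells, labelled Stk40 knockout (KO) or wild type (WT). Stk40 encodes a pseudokinase; the labels used here name neither the allele and any Cre driver nor the strain and age of the mice. The cells were untreated at the time labelled T0, and exposed to lipopolysaccharide (LPS), a cell wall component of Gram-negative bacteria, at T6, T16 and T32, time labels for which the sources used here give no unit. There were 12 KO libraries, 3 at each time, and 11 WT libraries, 3 at each time except T16, which had 2. No untreated library was labelled for the later times, so LPS and time in culture cannot be told apart. The labels do not tie a replicate to a mouse or culture of its own. Every p-value therefore reflects the spread among these libraries alone, which may be technical. Libraries of different times may share a mouse, and the tests treat them as independent.

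Chemoattractant receptors are G protein-coupled receptors that steer leukocytes up a gradient of their ligand, mostly through Gi proteins, whose beta-gamma subunits activate phosphoinositide 3-kinase gamma and phospholipase C beta. Fpr1 and Fpr2 bind formylated peptides of bacteria and mitochondria, C5ar1 and C3ar1 bind the complement fragments C5a and C3a, Ptafr binds the lipid platelet-activating factor, and Ltb4r1 binds the lipid leukotriene B4 with high affinity. Ccr1, Ccr2 and Cxcr4 are chemokine receptors; Ccr2 is best known for the exit of inflammatory monocytes from bone marrow, and Cxcr4 for holding leukocytes there. Activated receptors are silenced by G protein receptor kinases, beta-arrestins and RGS proteins.

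The libraries held 19455080 to 44097733 counts each. The macrophage markers were abundant: their summed level was 14320 to 29844 CPM (counts scaled to a common library size with TMM factors) in the 23 libraries, with Lyz2 at 9563 CPM or more, Adgre1 at 723 CPM or more and Csf1r at 1073 CPM or more. Stk40 RNA did not check the genotype labels: it averaged 56.5 ± 4.8 CPM in KO libraries and 48.1 ± 7.3 CPM in WT libraries at T0 (SD, n = 3 each), and 105 ± 2.32 CPM in KO libraries and 82.8 ± 15.1 CPM in WT libraries at T32 (SD, n = 3 each). The reads behind these counts may come from outside a deleted part, so KO below means the libraries labelled KO, and every direction rests on those labels. Some libraries stood apart from their groups, namely KO T0 replicate 1 and replicate 2 of KO T6 and of WT T6, by the mitochondrial share of counts, and WT T16 replicate 2, by a Saa3 share of 4.46% and a mean correlation of 0.960 with the other libraries of its time. Y-linked transcripts were at 45.9 to 116 CPM in 4 of 11 WT libraries (replicate 2 at T0 and T16, replicate 1 at T6 and replicate 3 at T32) and at 0.0929 CPM or less in the others, the 12 KO libraries included. The WT libraries of a time were thus not all from 1 mouse. Where leaving out the libraries that stood apart, or Y-linked RNA as a covariate, changed a call that is described below, the value is given beside it.

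On GRCm38 (GENCODE mouse release 21), Fpr1 (ENSMUSG00000045551, chr17:17876471-17883940, minus strand) and Fpr2 (ENSMUSG00000052270, chr17:17887824-17893952, plus strand) lay head to head with 3884 bases between their annotated starts. C5ar1 (ENSMUSG00000049130) was at chr7:16246743-16259540, minus strand, C3ar1 (ENSMUSG00000040552) at chr6:122847138-122856161, minus strand, and Ltb4r1 (ENSMUSG00000046908) at chr14:55765962-55768494, plus strand. Ccr1 (ENSMUSG00000025804, chr9:123962124-123968692, minus strand) and Ccr2 (ENSMUSG00000049103, chr9:124101950-124113557, plus strand) started 133.3 kb apart. Cxcr4 (ENSMUSG00000045382) was at chr1:128588199-128592293, minus strand. Ptafr (ENSMUSG00000056529) was at chr4:132564067-132582683, plus strand, on the chromosome that carries Stk40 and 6.4 Mb from it.  Fpr2 shared 48 exon bases with Fpr3, and 31.5% of the 50-base stretches of its transcripts also occurred in transcripts of other genes, chiefly Gm5966, so its counts are uncertain; the share was 1.91% for Ccr2, 1.64% for Ptafr, 0.078% for Fpr1 and 0 for the others.

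Promoter sequence is shown for Fpr1 and Fpr2, which changed most with LPS in the upward direction, for Cxcr4, which fell most, and for Ltb4r1 and Ccr1, which differed most between genotypes at T16 and T32. Each run is the 250 bases upstream of the RefSeq start on GRCm38.p6, written 5′ to 3′ on the gene's strand, and capitals mark a match to a searched motif on either strand.
Fpr1 (chr17:17883940-17884189, minus strand): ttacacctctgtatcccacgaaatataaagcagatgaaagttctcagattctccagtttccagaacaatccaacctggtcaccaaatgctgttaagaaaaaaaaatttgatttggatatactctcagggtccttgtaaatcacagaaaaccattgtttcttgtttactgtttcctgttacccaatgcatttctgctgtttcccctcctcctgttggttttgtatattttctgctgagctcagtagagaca
Fpr2 (chr17:17887574-17887823, plus strand): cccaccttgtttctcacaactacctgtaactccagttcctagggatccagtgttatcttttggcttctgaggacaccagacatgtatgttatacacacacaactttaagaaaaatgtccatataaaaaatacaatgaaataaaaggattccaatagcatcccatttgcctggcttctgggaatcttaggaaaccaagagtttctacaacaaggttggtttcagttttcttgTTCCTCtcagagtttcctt
Ltb4r1 (chr14:55765712-55765961, plus strand): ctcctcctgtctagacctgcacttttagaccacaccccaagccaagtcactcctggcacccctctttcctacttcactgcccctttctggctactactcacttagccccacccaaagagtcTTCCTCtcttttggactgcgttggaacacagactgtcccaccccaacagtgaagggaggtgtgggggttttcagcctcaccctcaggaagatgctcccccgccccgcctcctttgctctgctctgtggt
Ccr1 (chr9:123968693-123968942, minus strand): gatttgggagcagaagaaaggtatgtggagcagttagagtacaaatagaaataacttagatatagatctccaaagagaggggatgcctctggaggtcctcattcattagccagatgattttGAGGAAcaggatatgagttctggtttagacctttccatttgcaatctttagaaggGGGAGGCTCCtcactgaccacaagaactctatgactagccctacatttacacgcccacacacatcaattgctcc
Cxcr4 (chr1:128592300-128592549, minus strand): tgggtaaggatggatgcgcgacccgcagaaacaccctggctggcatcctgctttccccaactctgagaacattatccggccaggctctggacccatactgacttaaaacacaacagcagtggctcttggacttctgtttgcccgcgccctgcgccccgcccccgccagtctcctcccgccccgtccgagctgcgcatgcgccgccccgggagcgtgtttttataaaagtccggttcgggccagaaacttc
The motifs, each searched on both strands, were NF-kB (GGG and CC with any 5 bases between them), an interferon-stimulated response element (GAAA and GAAA with any 2 bases between them), C/EBP (TTGC and AA with any 2 bases between them), AP-1 (TGANTCA, where N is any base) and PU.1 (GAGGAA), and matches of different motifs were allowed to overlap. The PU.1 letters occurred in 4 of 9 members (Fpr2, Ptafr, Ltb4r1 and Ccr1) and in 23.3% of 32851 RefSeq promoters of this length. The NF-kB letters occurred in C3ar1 and Ccr1 and in 45.8% of all promoters, and the AP-1 letters in C3ar1 and in 6.7% of all promoters. Neither the interferon-stimulated response element nor the C/EBP letters occurred in a member, against 3.0% and 9.6% of all promoters.

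The order of the receptors differed between untreated and LPS libraries. Levels of different genes were compared on the authors' nRPKM, which scales counts by gene length and by a size factor. In untreated cells C3ar1 had the highest level, 253 ± 65.5 nRPKM in KO libraries and 162 ± 10.5 nRPKM in WT libraries (SD, n = 3 each). C5ar1, Cxcr4 and Ptafr followed at T0, with 123, 97.0 and 92.7 nRPKM in KO libraries and 114, 97.8 and 57.9 nRPKM in WT libraries. Cxcr4 and Ptafr overlapped over the KO libraries and C5ar1 and Cxcr4 over the WT libraries, so these neighbours were not separated beyond their spread. Fpr2, Fpr1 and Ltb4r1 had the lowest levels at T0, each under 5 nRPKM on average.

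By T32 the formyl peptide receptors stood directly behind C3ar1. The averages at T32 in KO libraries were 450 nRPKM for C3ar1, 327 nRPKM for Fpr1 and 165 nRPKM for Fpr2, without overlap between neighbours. In WT libraries at T32 they were 321, 298 and 134 nRPKM, and C3ar1 and Fpr1 overlapped. Cxcr4, Ltb4r1 and Ccr2 were the lowest in KO libraries at T32, at 9.74, 9.62 and 3.86 nRPKM, with Cxcr4 and Ltb4r1 overlapping. In WT libraries the lowest were Cxcr4, Ccr2 and Ltb4r1, at 10.1, 3.17 and 2.01 nRPKM, without overlap. Summed over the 9 genes, the level was 605 ± 97.7 nRPKM at T0 and 1214 ± 132 nRPKM at T32 in KO libraries, and 462 ± 16.6 nRPKM at T0 and 947 ± 39.4 nRPKM at T32 in WT libraries (SD, n = 3 each).

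**Figure D1:**
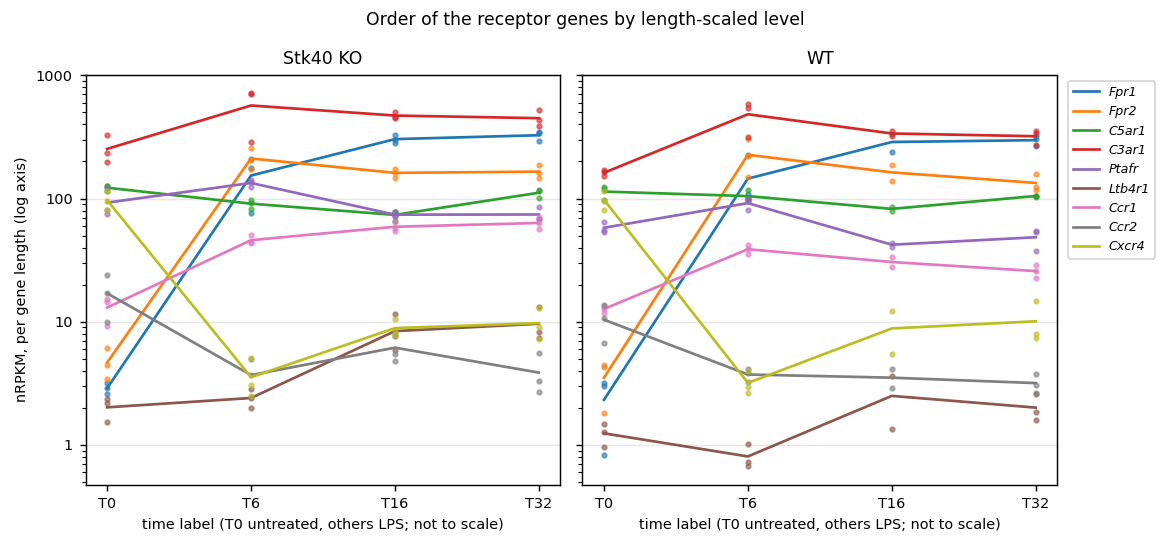
Length-scaled level (nRPKM, log axis) of the 9 receptor genes at each time label in KO libraries (left) and WT libraries (right); points are libraries and lines join group means. Fpr1 and Fpr2 lie below 7 nRPKM at T0 and above 75 nRPKM after LPS, Cxcr4 drops, and C3ar1 has the highest mean throughout.

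Against untreated cells, 8 of 9 receptor genes passed the test at T6 in KO libraries: 5 were higher, as were 26.2% of all genes tested, and 3 lower, as were 32.4%. In WT libraries 7 of 9 passed at T6, 5 higher (27.3% of all genes) and 2 lower (31.9%). At T16 it was 5 higher (20.4% of all genes) and 3 lower (23.3%) in KO libraries, and 5 higher (18.8%) and 3 lower (17.2%) in WT libraries, where 5 of 9 passed without WT T16 replicate 2. At T32 it was 5 higher (18.2%) and 2 lower (20%) in KO libraries, and 4 higher (24.5%) and 2 lower (21.9%) in WT libraries. The test was edgeR's quasi-likelihood test on the counts, where a gene passed with a p under 0.05 after Benjamini-Hochberg adjustment over the 15782 genes. The comparisons within a genotype share its T0 libraries. Bulk RNA cannot tell fewer cells of a type from less RNA per cell, and this holds for every level below.

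Both formyl peptide receptors rose steeply with LPS in both genotypes. Fpr1 was at 3.91 to 4.82 CPM at T0 in KO libraries, at 108 to 293 CPM at T6, at 422 to 493 CPM at T16 and at 450 to 522 CPM at T32. In WT libraries it was at 1.29 to 4.80 CPM at T0, 145 to 328 CPM at T6, 365 and 504 CPM at T16, and 414 to 489 CPM at T32. The LPS and untreated libraries did not overlap at any time. Over T0, the log2 fold change of Fpr1 was 5.63 ± 0.45 at T6 and 6.82 ± 0.47 at T32 in KO libraries (adjusted p = 1.5e-09 and 1.8e-09), and 5.91 ± 0.46 and 7.04 ± 0.48 in WT libraries (adjusted p = 9.2e-10 and 1.2e-09; ± SE throughout). Between T6 and T16 Fpr1 rose further, by 1.07 ± 0.37 in KO libraries and 1.05 ± 0.40 in WT libraries (adjusted p = 0.021 and 0.04). The call of that later rise was lost in KO libraries without T6 replicate 2, which stood apart (0.75, adjusted p = 0.095), or T16 replicate 1 (adjusted p = 0.057). In WT libraries it was lost without T6 replicate 2 or T16 replicate 2, which stood apart (0.84 and 0.80, adjusted p = 0.13 and 0.24), or T6 replicate 3.

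Fpr2, which also binds serum amyloid A and annexin A1, reached its highest mean at T6. Its means were 6.05, 254, 207 and 215 CPM at T0, T6, T16 and T32 in KO libraries and 4.58, 280, 211 and 176 CPM in WT libraries. At T6 its log2 fold change was 5.40 ± 0.34 in KO libraries and 5.95 ± 0.35 in WT libraries (adjusted p = 4.3e-11 and 1.7e-11), and its difference between T16 and T6 did not pass in either genotype (-0.30 ± 0.28 in KO libraries and -0.41 ± 0.31 in WT libraries; adjusted p = 0.41 and 0.31). Its adjusted p-values over T0 stayed under 0.05 in every alternative run, as did those of Fpr1.

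The complement receptors moved in opposite directions. C3ar1 rose, with means of 1249, 2604, 2299 and 2214 CPM at T0, T6, T16 and T32 in KO libraries and 804, 2269, 1660 and 1599 CPM in WT libraries. Its log2 fold change at T6 was 1.06 ± 0.28 in KO libraries and 1.5 ± 0.28 in WT libraries (adjusted p = 0.0026 and 0.00011). The KO libraries of T6 overlapped with those of T0, which reached 1607 CPM. In the libraries that stood apart at T6, C3ar1 was at 1314 CPM in KO replicate 2 and 1477 CPM in WT replicate 2, while the others of those groups were at 2565 to 3276 CPM. With library totals alone as the scale, which shifts the median of all genes by -1.0 in KO and -0.94 in WT at T6, the rise in KO libraries was 0.22 and lost its call (adjusted p = 0.44). At T32 the rise over T0 was 0.83 ± 0.27 in KO libraries and 0.99 ± 0.28 in WT libraries (adjusted p = 0.023 and 0.0065). The KO call at T32 was lost without KO T32 replicate 2 or KO T0 replicate 2 or 3 (adjusted p = 0.088, 0.11 and 0.071). The KO call at T16 was lost without KO T0 replicate 2 (0.73, adjusted p = 0.075).

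C5ar1 fell in the middle of the course and at T32 no longer differed from T0 by the test (-0.14 ± 0.12 in KO libraries and -0.11 ± 0.12 in WT libraries, adjusted p = 0.36 and 0.44). In KO libraries it was at 341, 367 and 375 CPM at T0, 268, 225 and 252 CPM at T6, 223, 227 and 193 CPM at T16, and 341, 341 and 302 CPM at T32. In WT libraries it was at 354, 366 and 293 CPM at T0, 276, 326 and 275 CPM at T6, 253 and 231 CPM at T16, and 314, 316 and 307 CPM at T32. KO libraries at T6 and T16 lay below all KO libraries of T0, and those of T32 lay above T16 and just below the lowest of T0, without overlap. The libraries of WT overlapped between T32 and T0. At T16 the log2 fold change was -0.75 ± 0.12 in KO libraries and -0.48 ± 0.13 in WT libraries (adjusted p = 3.4e-05 and 0.0075); without WT T16 replicate 2 the WT value was -0.41 (adjusted p = 0.068). In WT libraries at T6 it was -0.21 ± 0.12 (adjusted p = 0.13), and -0.29 without the 4 libraries that stood apart (adjusted p = 0.027). From T16 to T32 C5ar1 was the 1 of 9 receptor genes called in KO libraries (0.62 ± 0.12, adjusted p = 0.0052), where 2.55% of all genes passed. In WT libraries 0 of 9 passed this step in edgeR and 0 in DESeq2, 1 had an unadjusted p under 0.05 (C5ar1, 0.37 ± 0.13, adjusted p = 0.14), and 2.91% of all genes passed.

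Among the lipid receptors, Ptafr was abundant and Ltb4r1 scarce. Ptafr was highest at T6, with 543, 483 and 524 CPM in KO libraries and 398, 315 and 377 CPM in WT libraries, and its rise over T0 was 0.42 ± 0.17 in KO libraries and 0.58 ± 0.17 in WT libraries (adjusted p = 0.042 and 0.0065). With library totals as the scale the values at T6 turned to -0.41 and -0.22 (adjusted p = 0.027 and 0.22), so the direction of Ptafr at T6 depends on the scaling. The KO rise was also lost without any 1 of 4 libraries, KO T0 replicate 2 or 3 (0.28 and 0.34, adjusted p = 0.2 and 0.15) and KO T6 replicate 1 or 3 (0.38 and 0.41, adjusted p = 0.11 and 0.089). From T6 to T16 Ptafr fell, by -0.76 ± 0.17 in KO libraries and -1.05 ± 0.20 in WT libraries (adjusted p = 0.0011 and 0.00023).

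Ltb4r1 rose late. It was at 3.51, 3.70 and 2.44 CPM at T0 in KO libraries, 4.17, 2.94 and 3.55 CPM at T6, 12, 18.4 and 9.34 CPM at T16, and 13.2, 21.02 and 11.8 CPM at T32. In WT libraries it was at 2.36, 2.04 and 1.57 CPM at T0, 1.57, 1.08 and 1.02 CPM at T6, 2.18 and 5.74 CPM at T16, and 2.99, 2.57 and 4.15 CPM at T32. The T16 and T32 libraries of KO lay above every other library of either genotype. In KO libraries the log2 fold change over T0 was 2.03 ± 0.33 at T16 and 2.25 ± 0.33 at T32 (adjusted p = 6e-05 and 2.7e-05). In WT libraries it was 0.98 ± 0.37 at T16 and 0.70 ± 0.34 at T32 (adjusted p = 0.045 and 0.096), and without WT T16 replicate 2 the T16 value was 0.14 (adjusted p = 0.83); the WT call was also lost without WT T0 replicate 2 or 3, and with Y-linked RNA as a covariate (0.77, adjusted p = 0.085). Between 17 and 756 counts per library lay behind these levels, the fewest of any member.

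The chemokine receptors split into a riser and a pair that fell. Ccr1, a receptor for Ccl3, Ccl5, Ccl6 and Ccl9, rose by 1.71 ± 0.16 at T6 in KO libraries and 1.53 ± 0.16 in WT libraries (adjusted p = 1.8e-08 and 8.3e-08). It went on to 2.28 ± 0.16 over T0 at T32 in KO libraries and stood at 1.03 ± 0.16 in WT libraries (adjusted p = 2.9e-09 and 3.7e-05). Ccr2, the receptor for Ccl2, Ccl7 and Ccl12, had means of 132, 26.5, 47.1 and 29.9 CPM at T0, T6, T16 and T32 in KO libraries and 81.0, 27.4, 27.1 and 24.9 CPM in WT libraries. Its fall at T6 was -2.31 ± 0.35 in KO libraries and -1.56 ± 0.34 in WT libraries (adjusted p = 8.6e-06 and 0.00052). At T16 it was -1.48 ± 0.34 in KO libraries and -1.58 ± 0.39 in WT libraries (adjusted p = 0.0014 and 0.0035), and -1.34 in WT libraries without WT T16 replicate 2 (adjusted p = 0.057). From T6 to T16 Ccr2 rose by 0.83 ± 0.33 in KO libraries (adjusted p = 0.049), and lost that call without any 1 of 4 libraries, among them KO T6 replicate 2, which stood apart (0.60, adjusted p = 0.19).

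Cxcr4, the receptor for Cxcl12, had the deepest fall of the 9. It was at 239, 165 and 198 CPM at T0 in KO libraries, 5.86, 9.78 and 4.73 CPM at T6, 15.8, 21.5 and 17.1 CPM at T16, and 18.8, 26.3 and 15.1 CPM at T32. In WT libraries it was at 199, 169 and 243 CPM at T0, 5.27, 5.71 and 7.77 CPM at T6, 25.3 and 11.1 CPM at T16, and 31.1, 16.8 and 15.4 CPM at T32. The LPS and untreated libraries were far apart in both genotypes. Its log2 fold change at T6 was -4.90 ± 0.37 in KO libraries and -5.03 ± 0.37 in WT libraries (adjusted p = 6.4e-10 and 4.7e-10). Between T6 and T16 a part of the loss was regained, 1.43 ± 0.33 in KO libraries and 1.55 ± 0.36 in WT libraries (adjusted p = 0.0014 and 0.0016), and without WT T16 replicate 1 the WT value was 0.83 (adjusted p = 0.11). In this step from T6 to T16, 6 of 9 receptor genes passed in KO libraries, 5 higher (24.2% of all genes) and 1 lower (21.8%), and 4 of 9 in WT libraries, 3 higher (22.7%) and 1 lower (19.5%). The count was 3 in KO libraries without KO T6 replicate 2 and 2 in WT libraries without WT T16 replicate 2, both of which stood apart.

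**Figure D2:**
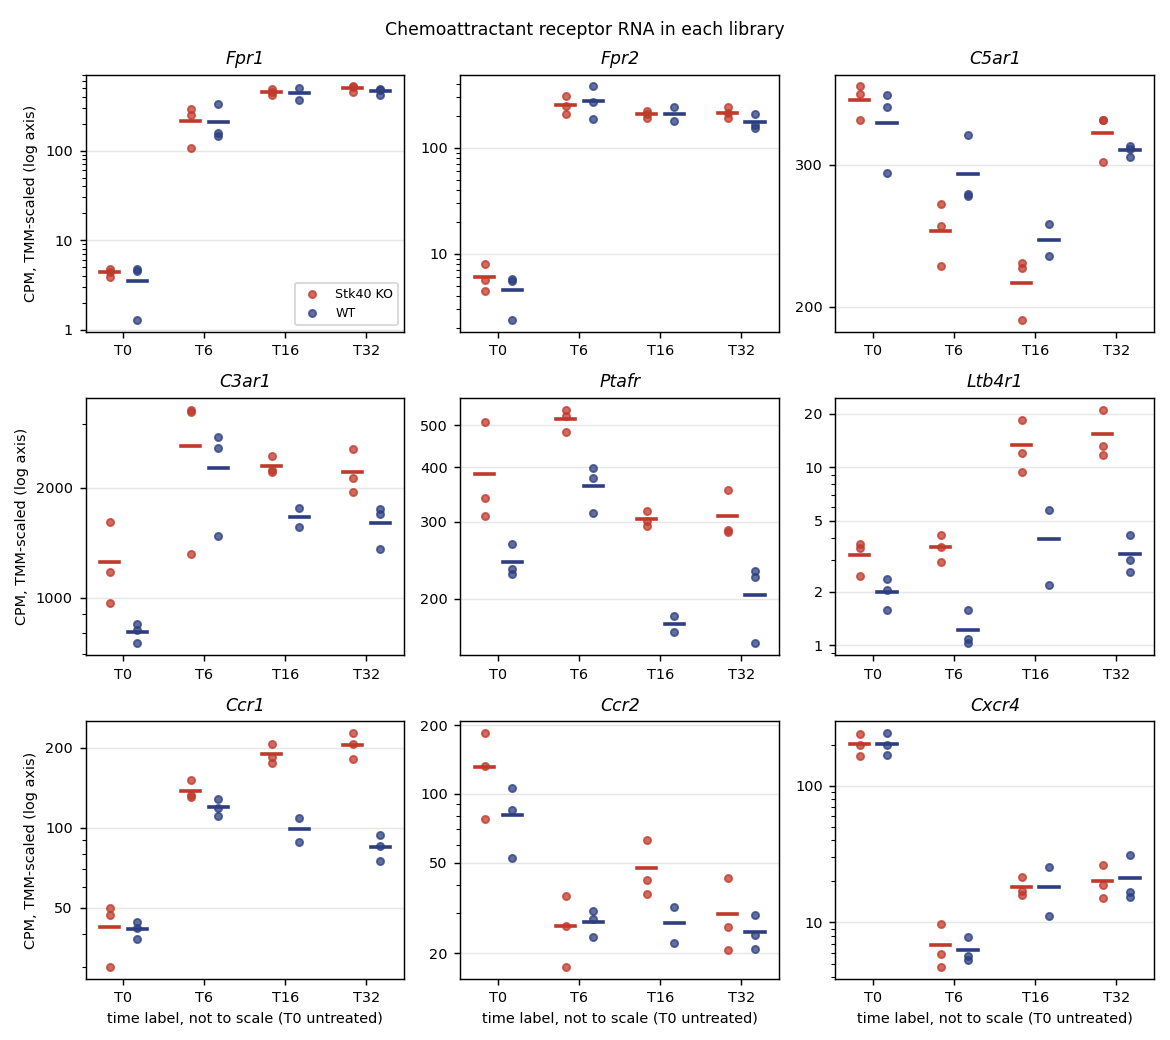
Level of each receptor gene in each library (CPM after TMM scaling, log axes that differ between panels) by time label, KO left of WT at each time; points are libraries and bars are group means. KO and WT points of Ltb4r1 and Ptafr do not overlap at any time and those of Ccr1 overlap at T0 alone, while Fpr1, Fpr2 and Cxcr4 overlap at every time.

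**Figure D3:**
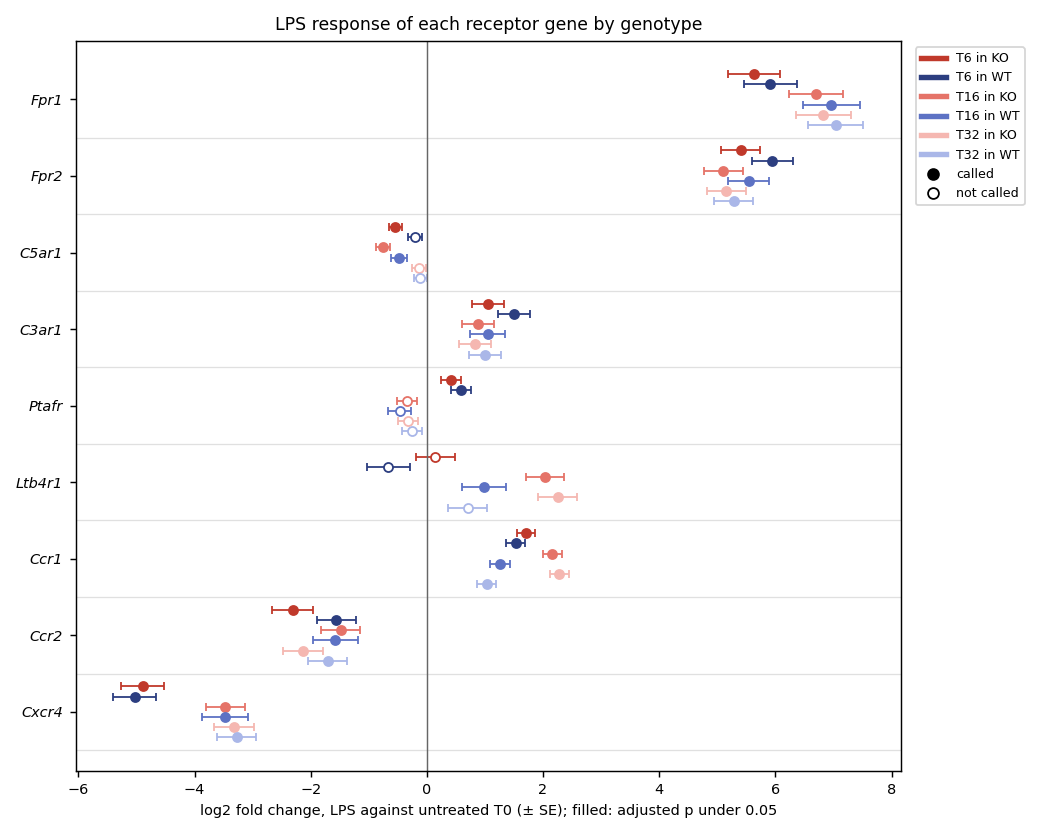
Log2 fold change over untreated T0 (± SE) of each receptor gene at T6, T16 and T32 in KO and WT libraries; filled points passed at adjusted p under 0.05. Fpr1 and Fpr2 lie between 5.10 and 7.04, Cxcr4 between -5.03 and -3.27, and KO and WT points part for Ltb4r1 and Ccr1 at the later times.

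Between genotypes, Ptafr, Ltb4r1 and Ccr1 were higher in KO libraries at T16 and at T32. At T0 1 of 9 receptor genes passed, Ptafr, and it was higher, as were 1.83% of all genes tested (0.114% were lower); 3 had an unadjusted p under 0.05. At T6 0 of 9 passed in edgeR (0.209% of all genes were higher and 0.0887% lower), 2 had an unadjusted p under 0.05 and 1 passed in DESeq2. At T16 3 of 9 were higher, against 4.16% of all genes, and none of the 9 was lower, against 3.48%. At T32 3 of 9 were higher, against 3.05% of all genes, and none was lower, against 3.34%. The T16 counts rest on the spread shared over all groups: fitted on the 5 libraries of T16 alone, 0 of 9 passed, and 9 genes did in all. Without WT T16 replicate 2, 1 of 9 passed at T16, Ltb4r1.

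Ptafr was higher in KO libraries at all 4 times, and the KO and WT libraries did not overlap at any of them. At T0 it was at 509, 309 and 341 CPM in KO libraries and at 267, 234 and 228 CPM in WT libraries. At T16 it was at 294, 301 and 318 CPM in KO libraries and at 182 and 168 CPM in WT libraries, and at T32 at 284, 356 and 287 CPM in KO libraries and at 231, 158 and 224 CPM in WT libraries. KO replicate 1 was the highest library at T0, and WT replicate 2 the lowest at T32. The log2 fold change was 0.67 ± 0.17 at T0, 0.51 ± 0.17 at T6, 0.80 ± 0.20 at T16 and 0.60 ± 0.17 at T32 (adjusted p = 0.048, 0.27, 0.019 and 0.043).

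The calls of Ptafr at single times depended on single libraries, and its call on average over the times was kept whichever library was left out. Without KO T0 replicate 1, a library that stood apart, the T0 value was 0.42 (adjusted p = 0.43), and the call was also lost without KO T0 replicate 3 or any WT library of T0. The T32 call was lost when any 1 of its 6 libraries was left out (0.44 to 0.69, adjusted p = 0.054 to 0.24), and the T16 call without WT T16 replicate 2 (0.74, adjusted p = 0.18) or KO T16 replicate 3 (0.77, adjusted p = 0.06). Averaged over the 4 times, Ptafr was higher in KO libraries by 0.64 ± 0.09 (adjusted p = 4.9e-05), and by 0.58 to 0.68 when any library was left out (adjusted p = 2.4e-05 to 0.00031).

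Ltb4r1 showed the largest genotype difference of the 9 on average over the times. The KO libraries, at 9.34 to 18.4 CPM at T16 and 11.8 to 21.02 CPM at T32, lay above the WT libraries, at 2.18 and 5.74 CPM at T16 and 2.57 to 4.15 CPM at T32. The log2 fold change was 0.70 ± 0.34 at T0, 1.51 ± 0.37 at T6, 1.75 ± 0.38 at T16 and 2.25 ± 0.33 at T32 (adjusted p = 0.52, 0.08, 0.0095 and 0.00036). At T6, where KO libraries were at 2.94 to 4.17 CPM and WT libraries at 1.02 to 1.57 CPM without overlap, it passed in DESeq2 (1.56, adjusted p = 0.0059) and with Y-linked RNA as a covariate (1.78, adjusted p = 0.024). Without WT T16 replicate 2 the T16 value was 2.60 on a lone WT library, assumed to vary like the other groups. The T32 call was kept when any 1 of its 6 libraries was left out (1.95 to 2.46, adjusted p = 0.00081 to 0.0059).

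Ccr1 began alike in both genotypes and came apart after T6. At T0 it was at 50.0, 30.0 and 47.0 CPM in KO libraries and at 38.2, 44.1 and 42.1 CPM in WT libraries. At T6 it was at 133, 131 and 151 CPM in KO libraries and at 111, 128 and 119 CPM in WT libraries. At T16 it was at 184, 175 and 208 CPM in KO libraries and at 109 and 88.9 CPM in WT libraries, and at T32 at 182, 227 and 206 CPM in KO libraries and at 85.2, 74.8 and 93.7 CPM in WT libraries. The groups overlapped at T0, were next to each other at T6 and were apart at T16 and T32.

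The log2 fold change of Ccr1 between genotypes was 0.03 ± 0.16 at T0, 0.21 ± 0.16 at T6, 0.94 ± 0.18 at T16 and 1.28 ± 0.16 at T32 (adjusted p = 0.97, 0.78, 0.0045 and 7.1e-05). Without WT T16 replicate 2 the T16 value was 0.80 (adjusted p = 0.096), and the T32 call was kept when any 1 of its 6 libraries was left out (1.20 to 1.36, adjusted p = 0.00018 to 0.0011). From T6 to T16 Ccr1 rose by 0.45 ± 0.16 in KO libraries (adjusted p = 0.023), a call lost without KO T6 replicate 2 (0.41, adjusted p = 0.07), KO T6 replicate 1 or KO T16 replicate 3. In WT libraries the value of that step was -0.27 ± 0.18 (adjusted p = 0.23).

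The other 6 receptor genes did not pass between genotypes at any time. C3ar1 was at 1945 to 2563 CPM in KO libraries and at 1359 to 1748 CPM in WT libraries at T32 without overlap (0.47 ± 0.27, adjusted p = 0.38); it passed at T32 when only the T32 libraries were fitted (adjusted p = 0.049) and without the 4 libraries that stood apart (adjusted p = 0.017). Ccr2 was at 77.6, 185 and 133 CPM in KO libraries and at 52.4, 106 and 84.7 CPM in WT libraries at T0, which overlapped (0.70 ± 0.33, adjusted p = 0.49). At T16 Ccr2 was at 36.5, 62.8 and 42.1 CPM in KO libraries and at 32 and 22.3 CPM in WT libraries without overlap (0.79 ± 0.38, adjusted p = 0.2). Its average over the 4 times, 0.43 ± 0.17, did not pass (adjusted p = 0.079), and it passed without KO T0 replicate 1 (0.50, adjusted p = 0.035) or KO T6 replicate 2 (0.49, adjusted p = 0.033), both of which stood apart. Fpr1 (0.14 ± 0.19), Fpr2 (0.13 ± 0.14), C5ar1 (-0.06 ± 0.06) and Cxcr4 (0.00 ± 0.16) averaged near 0 over the 4 times (adjusted p = 0.63, 0.53, 0.48 and 1).

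Averaged over the times, 4 of 9 receptor genes were higher in KO libraries, against 12.1% of all genes, and none was lower, against 10.3%. They were Ltb4r1 (1.55 ± 0.18, adjusted p = 6.2e-06), Ptafr, Ccr1 (0.61 ± 0.08, adjusted p = 3.3e-05) and C3ar1 (0.44 ± 0.14, adjusted p = 0.029). The median log2 fold change of the 9 was 0.43, against -0.01 over all genes tested. The C3ar1 call was lost when any 1 of 6 libraries was left out, among them the KO T0 replicate 1 and WT T16 replicate 2 that stood apart (0.39 and 0.42, adjusted p = 0.057 and 0.076), the others being KO T6 replicates 1 and 3, KO T32 replicate 2 and WT T32 replicate 2, and with Y-linked RNA as a covariate (0.48, adjusted p = 0.052).

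**Figure D4:**
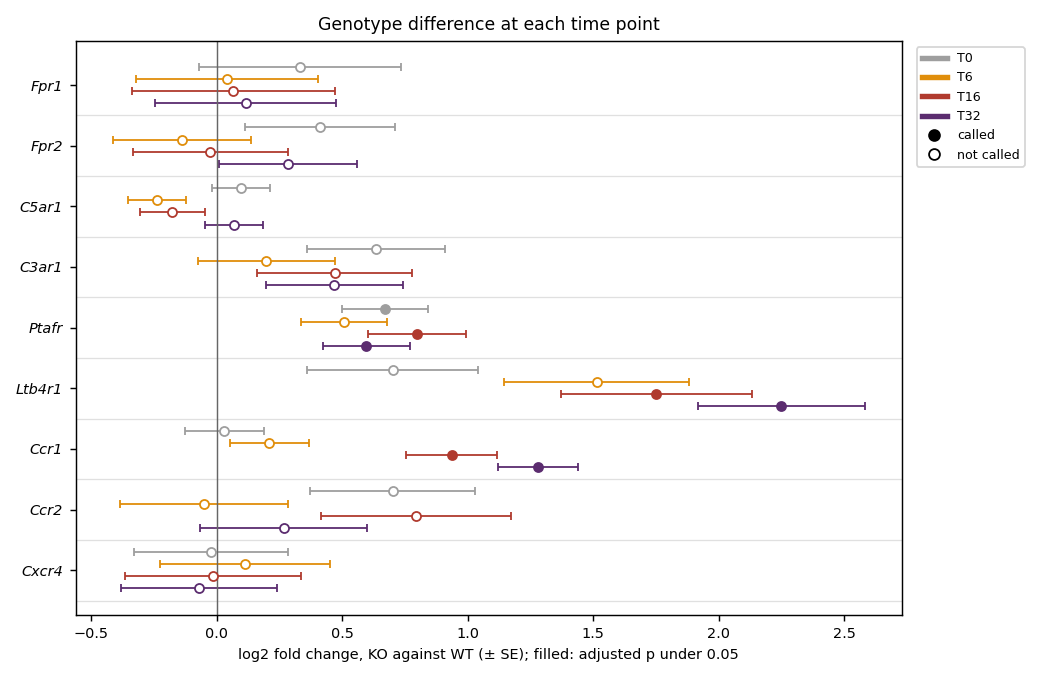
Log2 fold change of KO against WT libraries (± SE) for each receptor gene at T0, T6, T16 and T32; filled points passed at adjusted p under 0.05. Ltb4r1 runs between 0.70 and 2.25 and Ccr1 between 0.03 and 1.28 in the order of the times, Ptafr stays between 0.51 and 0.80, and no point of Fpr1, Fpr2 or Cxcr4, which lie between -0.14 and 0.41, is filled.

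Whether the response to LPS itself differed between genotypes was tested as the change of the KO against WT difference from T0. At T32 1 of 9 receptor genes passed, against 0.387% of all genes. That gene was Ccr1, whose change over T0 was larger in KO libraries than in WT libraries by 1.25 ± 0.22 on the log2 scale (adjusted p = 0.014), and by 1.39 without the 4 libraries that stood apart (adjusted p = 0.0023). At T16 0 of 9 passed in edgeR (0.0697% of all genes), where Ccr1 had 0.91 ± 0.24 (adjusted p = 0.16), and 2 had an unadjusted p under 0.05. Ccr1 passed at T16 in DESeq2 (0.91, adjusted p = 0.021), as 1 of 9, and in edgeR without WT T16 replicate 1 (1.06, adjusted p = 0.028). At T6 0 of 9 passed in edgeR or DESeq2, 0 had an unadjusted p under 0.05, and 0.101% of all genes passed. Ltb4r1 had 1.55 ± 0.47 at T32 and did not pass (adjusted p = 0.18), so a larger response of Ltb4r1 in KO libraries was not shown. Over the 3 LPS times jointly, 1 of 9 passed, Ccr1 (adjusted p = 0.019), against 0.456% of all genes, and it no longer passed when any 1 of 5 libraries was left out (KO T32 replicate 2 or 3, WT T32 replicate 1 or 2, or WT T0 replicate 3).

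The summed level of neutrophil and granulocyte precursor markers differed with the genotype in the same libraries. Ltb4r1 is a receptor of neutrophils as well as macrophages, and the 11 markers included Mmp8, Ltf, Ngp, S100a8, S100a9 and Ly6g. Their summed level was 629 to 722 CPM in KO libraries and 330 to 615 CPM in WT libraries at T0, and 597 to 734 CPM in KO libraries and 317 to 535 CPM in WT libraries at T6. It was 366 to 461 CPM in KO libraries and 150 and 333 CPM in WT libraries at T16, and 194 to 284 CPM in KO libraries and 69.5 to 88.3 CPM in WT libraries at T32. The KO libraries thus lay above the WT libraries at all 4 times. From T0 to T32 the summed level fell in both genotypes, whereas Ltb4r1 rose in KO libraries, from a mean of 3.22 to 15.3 CPM. Of the 11, 1 was higher in KO libraries at T0, Ly6g (1.88 ± 0.47, adjusted p = 0.041), 0 at T6, 1 at T16 and 2 at T32, and 6 on average over the times. Of all genes, 1.83%, 0.209%, 4.16% and 3.05% were higher at T0, T6, T16 and T32, and 12.1% on average. Mmp8, a collagenase stored in neutrophil granules, was higher by 2.25 ± 0.34 at T16 and 2.62 ± 0.29 at T32 (adjusted p = 0.0012 and 2.3e-05), and Ltf, which encodes lactoferrin, by 0.99 ± 0.26 at T32 (adjusted p = 0.027). Mmp8 ranged from 10.9 to 152 CPM over the 23 libraries, and the sums without it were not taken. The defining marker Ly6g was at 2.49 CPM or less, Retnlg at 9.46 CPM or less and Cxcr2 at 1.88 CPM or less in every library. The summed level of monocyte markers also differed with the genotype at T16, with 193 to 217 CPM in KO libraries and 77.1 and 158 CPM in WT libraries. At T0, T6 and T32 the KO and WT libraries overlapped in that monocyte sum. The part of the neutrophil, granulocyte precursor and monocyte markers in the Ltb4r1, Ccr1 and Ptafr differences was not tested.

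**Figure D5:**
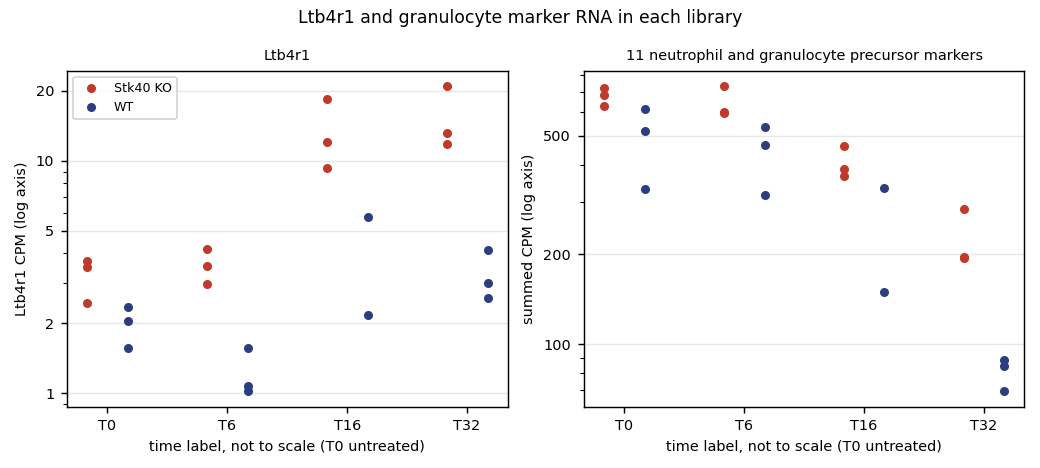
Ltb4r1 level (left) and the summed level of 11 neutrophil and granulocyte precursor markers (right) in each library (CPM, log axes) by time label, KO left of WT; points are libraries. At T32 the KO libraries lie above the WT libraries in both panels, at 11.8 to 21.02 against 2.57 to 4.15 CPM for Ltb4r1 and 194 to 284 against 69.5 to 88.3 CPM for the markers. From T0 to T32 the marker sums fall in both genotypes, while Ltb4r1 rises in KO libraries.

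Other chemoattractant receptors were measured in part: 19 of 37 listed genes passed the filter. At T6, 8 rose and 5 fell in KO libraries (26.2% and 32.4% of all genes), and 9 rose and 6 fell in WT libraries (27.3% and 31.9%). Ccrl2, a non-signalling receptor that binds chemerin, rose by 5.55 ± 0.37 in KO libraries and 5.79 ± 0.38 in WT libraries (adjusted p = 1.2e-10 and 7.7e-11). C5ar2, the other C5a receptor, changed by -2.58 ± 0.21 in KO libraries and -2.27 ± 0.21 in WT libraries (adjusted p = 2.2e-09 and 1e-08). Between genotypes 0 passed at T0 and T6, 1 was higher in KO libraries at T16, and 2 were higher and 1 lower at T32. Of all genes, 4.16% were higher at T16, and 3.05% were higher and 3.34% lower at T32. Ccrl2 (1.25 ± 0.31, adjusted p = 0.019) and Gpr35 (0.73 ± 0.19, adjusted p = 0.024) were those higher at T32, and Gpr35 was also the 1 at T16 (0.87 ± 0.22, adjusted p = 0.02). The 1 lower at T32 was Cxcr3, at 1.4 CPM in KO libraries and 3.8 CPM in WT libraries, which lies under the 5 CPM set for naming genes and was named after its values were seen, as were Ly6g at T0, Saa1, Cxcl12, Alox5 and Grk6. On average over the times 7 of 19 were higher and 0 lower, against 12.1% and 10.3% of all genes. Among the 7 was Cysltr2, a receptor of cysteinyl leukotrienes (0.77 ± 0.14, adjusted p = 0.00053).

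At T6, 12 of 17 tested genes of protein ligands were higher with LPS and 0 lower in KO libraries, against 26.2% of all genes higher and 32.4% lower. In WT libraries 13 were higher and 1 lower, Cxcl12, against 27.3% and 31.9% of all genes. Ccl5, a ligand of Ccr1, rose by 7.0 ± 0.42 in KO libraries and 7.96 ± 0.44 in WT libraries (adjusted p = 2.8e-11 and 8.6e-12), and Ccl7, a ligand of Ccr1 and Ccr2, by 6.45 ± 0.51 in KO libraries and 6.71 ± 0.52 in WT libraries (adjusted p = 1.4e-09 and 9.5e-10). Between genotypes 3 were higher in KO libraries at T32: Ccl6 (0.91 ± 0.20, adjusted p = 0.01), Ccl9 (0.79 ± 0.19, adjusted p = 0.018) and Anxa1, which encodes the Fpr2 ligand annexin A1 (0.58 ± 0.17, adjusted p = 0.041). The count was 1 at T0, Saa1, 0 at T6 and 0 at T16, and on average over the times 10 of 17 were higher and 0 lower. Of all genes, 1.83%, 0.209%, 4.16% and 3.05% were higher at T0, T6, T16 and T32. On average 12.1% of all genes were higher and 10.3% lower.

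Of 11 enzymes that make or break down the lipid ligands, 5 were higher and 3 lower with LPS at T6 in each genotype, where 26.2% of all genes were higher and 32.4% lower in KO libraries and 27.3% higher and 31.9% lower in WT libraries. Pla2g4a, the cytosolic phospholipase A2 that releases the precursors, rose by 5.69 ± 0.36 in KO libraries and 5.79 ± 0.37 in WT libraries (adjusted p = 6.2e-11 and 5.2e-11), while Lta4h, which completes leukotriene B4, changed by -1.49 ± 0.13 in KO libraries and -1.30 ± 0.13 in WT libraries (adjusted p = 4.3e-09 and 2.7e-08). None of the 11 passed between genotypes at a single time. On average 2, Pafah1b2 and Alox5, were higher and 1 lower in KO libraries, against 12.1% and 10.3% of all genes. That 1 was Pafah2, a platelet-activating factor acetylhydrolase (-0.51 ± 0.10, adjusted p = 0.0014).

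Of 28 genes of G protein signalling, 20 rose and 4 fell at T6 in KO libraries (26.2% and 32.4% of all genes) and 21 rose and 4 fell in WT libraries (27.3% and 31.9%). The beta subunit gene Gnb4 rose by 4.09 ± 0.20 in KO libraries and 4.18 ± 0.20 in WT libraries (adjusted p = 1.7e-12 in each). Between genotypes, Pak1, a kinase downstream of Rac, was lower in KO libraries at T16 (-0.86 ± 0.15, adjusted p = 0.0029) and T32 (-0.72 ± 0.14, adjusted p = 0.0032), and Gna15, a Gq family alpha subunit, at T16 (-0.64 ± 0.19, adjusted p = 0.04). These 2 at T16 and 1 at T32 were the calls of the 28 at single times, all lower. At those times 3.48% and 3.34% of all genes were lower. On average over the times 4 of 28 were higher and 2 lower, against 12.1% and 10.3% of all genes.

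At single times, genes of receptor desensitisation were lower in KO libraries where they passed. At T6 4 of 14 rose and 7 fell with LPS in KO libraries (26.2% and 32.4% of all genes), and 3 rose and 6 fell in WT libraries (27.3% and 31.9%). Arrb1, which encodes beta-arrestin 1, changed by -4.52 ± 0.17 in KO libraries and -4.07 ± 0.17 in WT libraries at T6 (adjusted p = 8.4e-14 and 2.5e-13). Between genotypes 0 passed at T0 and T6, 2 were lower at T16, Rgs2 and Rgs10, and 5 at T32, and none was higher. Of all genes, 3.48% were lower and 4.16% higher at T16, and 3.34% lower and 3.05% higher at T32. At T32 Arrb1 averaged 103 CPM in KO libraries and 180 CPM in WT libraries (-0.80 ± 0.15, adjusted p = 0.0026), and Rgs10 32.5 CPM in KO libraries and 55.4 CPM in WT libraries (-0.77 ± 0.18, adjusted p = 0.012). Rgs2, a Gq regulator, and Rgs18 were also lower at T32 (-0.71 ± 0.17 and -0.59 ± 0.17, adjusted p = 0.013 and 0.045), as was Grk6, a G protein receptor kinase (-0.51 ± 0.14, adjusted p = 0.033).

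The genes with the most similar course were found by the root-mean-square (RMS) difference of log2 CPM over the 8 group means, each gene centred on its own mean, among 9275 genes with a mean of at least 5 CPM. The nearest to Ccr1 were Slx4ip and Id2 (RMS 0.17 and 0.21), to Ltb4r1 Tenm4 and Cd300lf (0.22 and 0.31), and to Ptafr Capn2 and Cav2 (0.14 and 0.14). Cd38 and Ccl2 were nearest to Fpr2 (0.34 and 0.42), and Cd38 was the second nearest to Fpr1 (0.62), after a long non-coding RNA without a gene name (0.43). Rnf144b and Slc46a3 were nearest to Cxcr4 (0.33 and 0.34), Fam102a and Agap1 to Ccr2 (0.25 and 0.25), Ankfy1 and Parp3 to C3ar1 (0.10 and 0.11), and the pseudogene Dnajc19-ps and Thoc1 to C5ar1 (0.09 and 0.10). Within the 9, the closest course to Fpr1 was that of Fpr2 (RMS 0.82), and to Ltb4r1 that of Ccr1 (0.90). The median RMS over the 9275 genes was 2.89 for Fpr1 and 1.21 for Ltb4r1, so these 2 values do not stand for the same closeness. The groups share these libraries and their scaling, so the measure is a description.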

How the data were processed

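RNA was purified with DNase treatment on the column and sequenced from TruSeq version 2 libraries as single-end reads of 50 bases, per the labels' protocols; that kit does not mark strand, so antisense and overlapping genes cannot be told apart. Reads were aligned with GSNAP to GRCm38, per the submitters' processing notes; the annotation, the counter and the versions were not given in the sources used here. Raw counts per gene are what the authors deposited, with RPKM adjusted by a size factor beside them (nRPKM, the name in the file headers). Counts were used for all tests and nRPKM only to compare levels between genes; in 23 of 23 libraries the series and sample tables were identical. Of 52636 identifiers, 52403 were in GENCODE mouse release 21, used for positions.

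Counts were fitted in R 4.3.3 with edgeR 4.0.16 (filterByExpr, TMM factors 0.677 to 1.45, robust quasi-likelihood test) on 23 libraries with a mean for each of 8 groups. Benjamini-Hochberg adjustment ran over all 15782 genes; SE is the log2 fold change divided by the root of F. DESeq2 1.42.0, other scalings, no filter, smaller fits, a Y-linked covariate, a replicate block and leaving out libraries were alternatives. Replicates of a group differed by a chi-square of 13.9 to 188 per degree of freedom, and none was merged.

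The members, gene lists and marker lists were chosen with earlier results of these data known. All members are named. From each list, up to 4 genes per comparison that passed with a mean of at least 5 CPM could be named, by size of change; a selection of these is printed. Drawing used matplotlib.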

Additional observations from a re-analysis of the deposited data

Results flagged for a closer look

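The response of Ccr1 to LPS differed between genotypes by a test of the difference itself. From T0 to T32 the KO against WT difference of Ccr1 changed by 1.25 ± 0.22 on the log2 scale (edgeR adjusted p = 0.014): its mean was 205 CPM in KO libraries and 84.5 CPM in WT libraries at T32, and 42.3 CPM in KO libraries and 41.5 CPM in WT libraries at T0. The test over the 3 LPS times jointly also passed for Ccr1 (edgeR adjusted p = 0.019). The joint call was lost when any 1 of 5 libraries was left out. The T32 call was kept whichever library was left out (1.06 to 1.39, largest adjusted p 0.05 after rounding and still under that threshold).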

How the results depend on the processing

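Over the settings other than leaving out a library, 1220 values of single members kept their side of the threshold, 25 newly passed, 40 no longer passed and 2 reversed. Leaving out a library gave 1190, 4, 48 and 0. A change of sign was counted as a reversal only where the value passed in either run, and otherwise as kept. Fpr1 between genotypes at T0, for example, was 0.33 and went down to -0.08 with a library left out, without passing. The reversals so counted were Ptafr at T6 over T0 with library totals as the scale, -0.41 in KO and -0.22 in WT. That scale moved the median of all genes by -0.15 to -0.20 between genotypes and by -0.31 to -1.0 over T0, and changes are to be read relative to it. Between genotypes, the 1 member called at T0 became 0 with library totals, no filter, only the groups compared, or without the 4 libraries that stood apart; the 0 at T6 became 1 with the Y-linked covariate and with DESeq2; and the 3 at T16 became 0 with only the groups compared. The 0 of the genotype difference at T16 against T0 became 1 with DESeq2. Leaving out a library gave 0 to 1 members called at T0, 1 to 3 at T16, 2 to 2 at T32, 3 to 5 on average over times, 5 to 8 for LPS at T16 in WT, 3 to 5 for T16 against T6 in KO, 2 to 4 for T16 against T6 in WT, 0 to 1 for the genotype difference at T16 against T0, and 0 to 1 for any change of it; a lone WT T16 library was assumed to vary like the other groups. Replicate numbers in a deposited sample table follow accession order, and the labels give none. Same-numbered KO and WT libraries deviated together at T6 (correlations 0.33 to 0.59) and not at the other times (4 of 11 over 0.1; lowest -0.32), so the numbers were not taken as pairs. A replicate block, chosen after seeing the data, moved no count of members called by over 1.5 times, kept 0 at T6, and changed 3 single calls: Ptafr over T0 at T16 in WT (-0.47, adjusted p = 0.047), Ltb4r1 over T0 at T16 in WT (0.85, adjusted p = 0.071) and Ccr2 from T6 to T16 in KO (0.78, adjusted p = 0.064). Sample names in the titles run in another order, alternating KO and WT within each time with a gap at T16. The WT library with Y-linked RNA came last at every time in that order. Pairs or a block in that order were not tested. The replicate block was built on accession order, so it cannot show whether libraries were paired or shared a mouse. Where a call changed, the cause was not tested. Depth limits Ltb4r1 most, with 17 to 756 counts per library.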

Other observations

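Markers of other cell types varied among the libraries. For the counts below, 12.1% of all genes were higher and 10.3% lower in KO libraries on average over the times. At T0 1.83% were higher, and at T32 3.34% were lower. Of 4 monocyte markers, Ly6c2 was higher in KO libraries at T0 (1.03 ± 0.24, edgeR adjusted p = 0.024) and 2 were higher and 1 lower on average over the times; their summed level was 193 to 217 CPM in KO libraries and 77.1 and 158 CPM in WT libraries at T16, without overlap, and at T32 it was 112 to 187 CPM in KO libraries and 61.6 to 131 CPM in WT libraries. Of 5 stromal markers, Col1a1 and Col1a2 were lower in KO libraries on average (-1.24 ± 0.43 and -1.11 ± 0.39, edgeR adjusted p = 0.043 and 0.044), with sums of 57.3 to 221 CPM in KO libraries and 43.3 to 415 CPM in WT libraries at T32. The 8 macrophage markers matched 9 gene identifiers. Among them, Fcgr1 was higher in KO libraries at T0 (1.30 ± 0.21, edgeR adjusted p = 0.0011) and Cd14, the LPS co-receptor, lower at T32 (-0.61 ± 0.16, edgeR adjusted p = 0.026). Dendritic cell, lymphoid, mast cell, basophil and eosinophil markers each summed to 5.14 CPM or less in every library and erythroid markers to 1.25 CPM or less. None of these 4 lists had a gene called between genotypes at a single time; on average over the times 1 dendritic (Clec9a), 2 lymphoid (Cd79a and Ms4a1) and 1 mast cell, basophil and eosinophil marker (Mcpt8) were higher in KO libraries, each named after its values were seen.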
